A study of Mus musculus with 7 samples.

Results

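The 3 PIM kinase genes Pim1, Pim2 and Pim3 and a further 3 genes known as targets of the transcription factor STAT5, namely Bcl6, Gfi1 and Osm, were followed in mouse T-cell leukemias driven by a JAK2 fusion kinase or by activated NOTCH1. They were taken as every probe set of the array annotated to exactly 1 of these symbols, which gave 10 probe sets for 6 genes, out of 45037 probe sets and 18193 genes. Pim3 had 3 probe sets, Pim1 and Bcl6 had 2 each, and Pim2, Gfi1 and Osm had 1 each. No probe set of these genes was shared with another symbol.

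The series held 4 arrays of TEL-JAK2 leukemic thymus cells and 3 arrays of ICN1 leukemic bone marrow cells. All came from terminally ill C57Bl/6 mice. TEL-JAK2 is a fusion protein in which the JAK2 kinase is permanently switched on, and ICN1 is the intracellular part of NOTCH1, active without ligand. Age, sex, the promoter or vector that carried each oncogene and any pooling of animals are not stated in the labels, and no sorting step is named. The labels do not state outright that the arrays of a group came from separate animals, so p-values reflect only how far these samples spread, which may be technical. Each genotype was sampled from a tissue of its own, so genotype and tissue cannot be told apart in any comparison.

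JAK kinases phosphorylate STAT5, which then forms dimers, enters the nucleus and binds DNA at the palindrome TTCNNNGAA. In lymphocytes this pathway carries signals of interleukin-2, interleukin-7 and related cytokines. PIM kinases are serine/threonine kinases that are active as soon as they are made, so their activity follows mainly from how much of them a cell makes, and they promote survival, translation and cell cycle entry. BCL6 and GFI1 are zinc finger repressors of transcription. Oncostatin M, the product of Osm, is a secreted cytokine of the interleukin-6 family. Bcl6 differs from the rest in that STAT5 is known to repress it in lymphocytes, whereas the others are known as genes that cytokines induce.

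Sequence upstream of the start sites is shown for Bcl6, because it was the single one of the 5 members with a promoter window to hold the STAT palindrome. The RefSeq promoter table of build GRCm38.p6, which runs from 250 bases before to 50 bases after each start, matched 5 of the 6 members, all but Osm. TTCNNNGAA reads the same on both strands. It was present in both Bcl6 windows and in none of the windows of Pim1, Pim2, Pim3 and Gfi1. Over all 32851 promoter windows of this length, 8.3% held at least 1 match, 0.457% at least 2 and 0.0335% at least 3. The 250 bases before each Bcl6 start are printed with the matches in capitals, the upstream start at chr16:23988853-23989102 and the downstream start at chr16:23981284-23981533, both on the minus strand.
Bcl6 upstream start: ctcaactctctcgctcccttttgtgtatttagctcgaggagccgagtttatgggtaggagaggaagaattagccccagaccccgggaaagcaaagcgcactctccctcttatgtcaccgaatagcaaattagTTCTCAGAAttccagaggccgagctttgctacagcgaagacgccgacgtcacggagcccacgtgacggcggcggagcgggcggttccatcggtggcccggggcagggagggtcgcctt
Bcl6 downstream start: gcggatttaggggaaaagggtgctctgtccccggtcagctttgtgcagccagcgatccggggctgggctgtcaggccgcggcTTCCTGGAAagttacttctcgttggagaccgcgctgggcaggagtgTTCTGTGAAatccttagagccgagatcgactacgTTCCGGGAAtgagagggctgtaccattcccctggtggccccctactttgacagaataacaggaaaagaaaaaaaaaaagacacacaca
The upstream start had 1 match, beginning at -118, and the downstream start had 3, beginning at -168, -122 and -88 relative to the start site. A match is a run of letters and was not tested as a bound site. Whether the probe sets tell transcripts of the 2 starts apart was not examined.

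For comparison, 15 of the 20 further STAT5 targets considered here had a promoter window, and 4 of them held the palindrome. Cish and Socs3, which encode feedback inhibitors of cytokine signalling, are shown as examples of targets that rose in TEL-JAK2 and hold the palindrome. Matches are in capitals, with 10 bases on either side, from chr9:107296649-107296677 (plus strand) and chr11:117969502-117969530 (minus strand). The Bcl6 match at -168 is given beside them.
Cish: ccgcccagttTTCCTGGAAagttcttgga
Socs3: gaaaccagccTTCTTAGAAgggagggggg
Bcl6: aggccgcggcTTCCTGGAAagttacttct
The 9 letters TTCCTGGAA at the Cish start site are the same as those at -168 of the downstream Bcl6 start. Cish held a further match, TTCTTGGAA, which began at position 12 after the start site. The match at the Socs3 promoter began at -154 and read TTCTTAGAA. The cytokine gene Lta, which also rose, held 2 matches, TTCAGGGAA at -152 and TTCCCAGAA at -16. Other targets rose without a match. The windows of Socs1, Bcl2, Mcl1, Dusp5 and Il4ra held none, although each was higher by limma at an adjusted p under 0.05. Gzmb held 1 match, and its difference did not pass that threshold (adjusted p = 0.163 by limma).

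Some facts of the arrays bear on all results. ICN1 replicates 1 and 2 read high for both Xist (11.51 and 11.79) and the Y-linked gene Kdm5d (7.73 and 7.99), a combination seen on no other array. TEL-JAK2 replicate 4 read 5.19 for Xist and 7.60 for Kdm5d, and the remaining arrays had Xist without Kdm5d. Results are therefore also given without ICN1 replicates 1 and 2, which leaves 1 ICN1 array that is assumed to vary like the TEL-JAK2 arrays. The summed level of 9 measured T-lineage genes was 15.70 to 15.99 (log2) in TEL-JAK2 and 14.94 to 15.22 in ICN1, with 6 genes higher in TEL-JAK2 and 1 lower, so both groups expressed the labelled lineage. Thymic epithelial and stromal genes summed to 9.43 to 10.03 in TEL-JAK2 and 9.86 to 10.15 in ICN1. Of these 10 genes 1 was lower and 9 were not called. The brightest of them was the endothelial gene Pecam1 (8.90 in TEL-JAK2 and 9.33 in ICN1). The thymic epithelial genes Foxn1 and Aire lay higher in all 4 TEL-JAK2 arrays than in any ICN1 array. Foxn1 averaged 4.85 in TEL-JAK2 and 4.52 in ICN1 (adjusted p = 0.0565 by limma). It was called in 3 of 20 alternative settings, among them without TEL-JAK2 replicate 2 (0.0483). Its difference was -0.29 once each array was centred on its CD3 genes, a setting in which all rises that small turn negative. Aire averaged 6.27 in TEL-JAK2 and 5.39 in ICN1 (adjusted p = 0.0522 by limma). It was called in 8 of 20 alternative settings, among them without TEL-JAK2 replicate 3 (0.0428) or 4 (0.0243). With CD3 centring the difference of Aire was 0.25 and was not called. The part of thymic epithelium in the members' levels was not tested. The 8 erythroid genes summed to 8.21 to 9.89 in TEL-JAK2 and 15.44 to 15.79 in ICN1, with 7 lower in TEL-JAK2. The 5 megakaryocyte genes summed to 8.27 to 8.49 in TEL-JAK2 and 9.38 to 11.87 in ICN1, with 4 lower. In bulk samples fewer cells of a type and less RNA per cell cannot be told apart.

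Osm and Gfi1 were higher in TEL-JAK2, and the other 4 genes were not called in either direction. Differences are TEL-JAK2 minus ICN1 on the log2 scale of the authors' RMA values, with the standard error (SE) of the limma fit, for n = 4 TEL-JAK2 and n = 3 ICN1 arrays. A probe set was called where its p, adjusted by the Benjamini-Hochberg method over all 45037 probe sets, was under 0.05. By that rule 2 of the 10 member probe sets were higher and 0 were lower. At an unadjusted p under 0.05 a single probe set read lower, that of Bcl6 described below. Among all probe sets 9.26% were higher and 10.3% lower, 19.6% in either direction, so the share of members called is close to that of the table as a whole. The groups did not overlap in 2 of the 10 member probe sets, both higher in TEL-JAK2, against 30.7% of all probe sets (16.2% higher and 14.4% lower). The median difference was 0.34 over the 10 member probe sets and 0.035 over all probe sets. The plot of the members by array shows these levels.

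**Figure D1:**
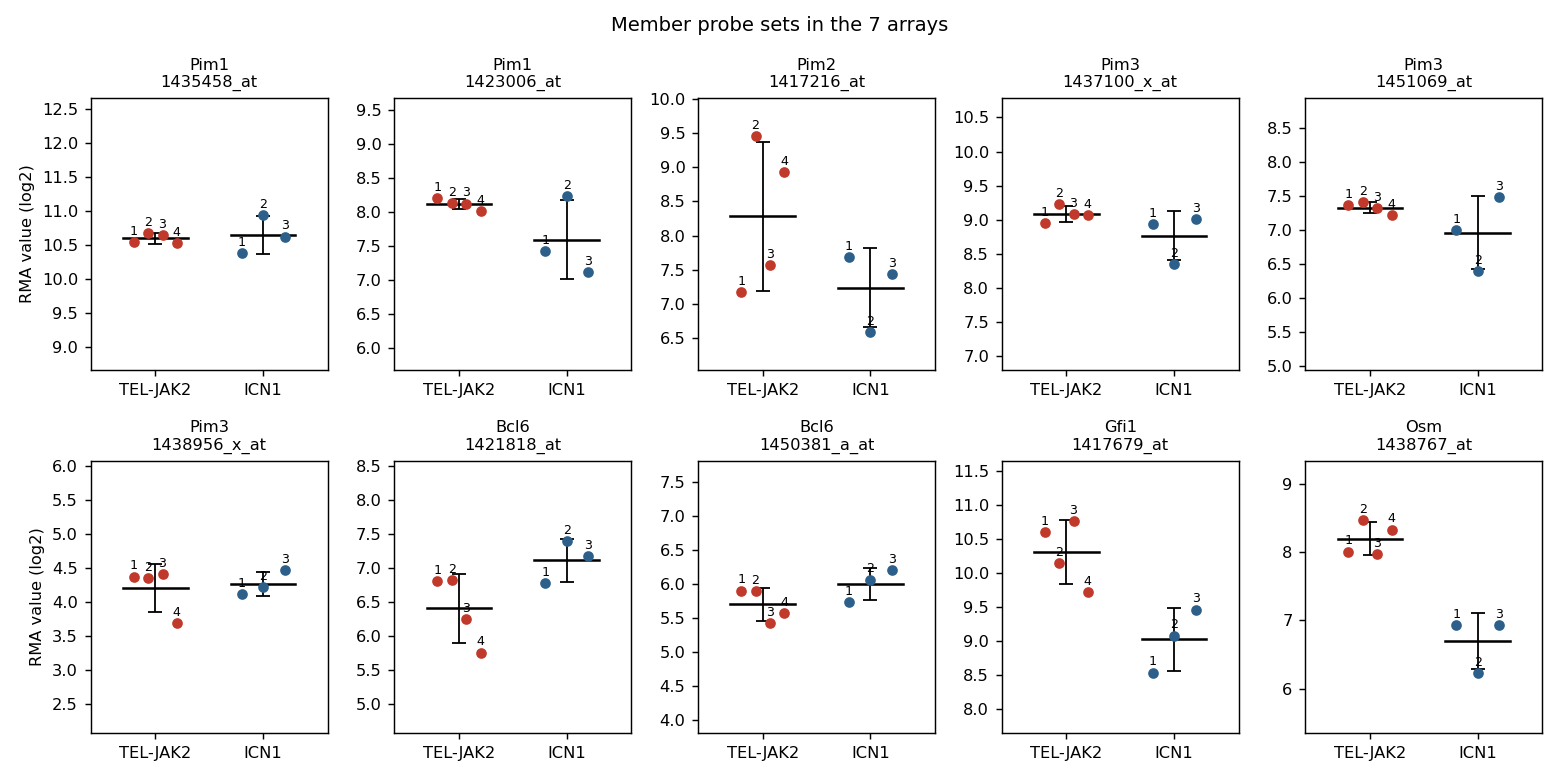
RMA values (log2, vertical axes, each spanning 4 log2 units) of the 10 member probe sets in the 4 TEL-JAK2 arrays (red, left) and the 3 ICN1 arrays (blue, right). Points carry the replicate number, the long line is the mean and the bars are ± 1 SD. The groups stay apart for Gfi1 and Osm and overlap in the other 8 probe sets.

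Osm, the cytokine gene, had the largest absolute difference of the 10 member probe sets. It read 8.01, 8.47, 7.98 and 8.34 in TEL-JAK2 replicates 1 to 4, against 6.93, 6.22 and 6.94 in ICN1 replicates 1 to 3. All 4 TEL-JAK2 arrays lay above all 3 ICN1 arrays. The difference was 1.5 ± 0.21 (adjusted p = 0.00313 by limma), which is 2.83-fold with a 95% interval of 2.0-fold to 4.01-fold. Its size exceeded that of 94.2% of all probe sets. The call was kept in all 7 fits that left out 1 array (differences of 1.27 to 1.62, adjusted p from 0.00565 to 0.0107) and without ICN1 replicates 1 and 2 (1.26, adjusted p = 0.0264). With a test that lets the variances of the groups differ, adjusted p was 0.0937.

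Gfi1 encodes a repressor needed for the maturation of T-cell progenitors and neutrophils. It read 10.60, 10.14, 10.76 and 9.71 in TEL-JAK2, against 8.54, 9.08 and 9.46 in ICN1. The groups did not overlap, but the lowest TEL-JAK2 array, replicate 4, and the highest ICN1 array, replicate 3, lay close together. The difference was 1.28 ± 0.30 (adjusted p = 0.0243 by limma), which is 2.43-fold with a 95% interval of 1.48-fold to 3.97-fold. Leaving out a single array ended the call for 4 arrays, with an adjusted p of 0.0724 for ICN1 replicate 1, 0.0616 for ICN1 replicate 2, 0.0686 for TEL-JAK2 replicate 1 and 0.0572 for TEL-JAK2 replicate 3. Without ICN1 replicates 1 and 2 together the difference was 0.84 (adjusted p = 0.262).

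Both genes are also expressed by myeloid cells. The 11 measured granulocyte genes summed to 8.77 to 9.39 in TEL-JAK2 and 10.31 to 12.79 in ICN1, with 5 lower in TEL-JAK2 and 6 not called. The 11 monocyte and macrophage genes summed to 10.73 to 13.10 in TEL-JAK2 and 13.13 to 14.26 in ICN1, with 4 lower and 7 not called. Osm and Gfi1 thus stood higher in the group in which the summed levels of both myeloid lists were lower. Within TEL-JAK2, Osm was highest in replicates 2 and 4, where the macrophage list stood at 13.10 and 12.97, against 11.64 and 10.73 in replicates 1 and 3. Gfi1 ran the other way and was lowest in those 2 arrays. The part of these cells in either level was not tested.

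Pim1, known as a common site of retroviral insertion in mouse lymphomas, gave different readings from its 2 probe sets. The brighter, 1435458_at, read 10.54, 10.68, 10.64 and 10.53 in TEL-JAK2, against 10.38, 10.94 and 10.62 in ICN1. The TEL-JAK2 values lay inside the ICN1 range, and the difference was -0.05 ± 0.14 (adjusted p = 0.842 by limma). The 95% interval of the fold ran from 0.769 to 1.21. The other, 1423006_at, read 8.20, 8.13, 8.12 and 8.0 in TEL-JAK2, against 7.42, 8.23 and 7.11 in ICN1. Of the ICN1 arrays, replicate 2 alone reached the TEL-JAK2 level. The difference of 0.53 ± 0.24 was not called (adjusted p = 0.186), and it was called without ICN1 replicate 2 (0.85, adjusted p = 0.00786) and without ICN1 replicates 1 and 2 (1.0, adjusted p = 0.0123). The 2 probe sets therefore do not give Pim1 a common direction. Both varied little among the TEL-JAK2 arrays, with an SD of 0.07 and 0.08, lower than in all but 11.4% and 13.5% of probe sets.

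Pim2, an X-linked PIM kinase gene induced by cytokines in lymphocytes, was the most variable member within TEL-JAK2. It read 7.16, 9.46, 7.56 and 8.93 in TEL-JAK2, against 7.68, 6.58 and 7.43 in ICN1. Replicates 2 and 4 of TEL-JAK2 lay above every ICN1 array, and replicates 1 and 3 lay within the ICN1 range. The 4 TEL-JAK2 arrays spanned 4.9-fold, and their SD of 1.09 exceeded that of 98.8% of probe sets. The difference of 1.05 ± 0.58 was not called (adjusted p = 0.267), and its 95% interval, 0.806-fold to 5.29-fold, leaves room for a rise as large as that of Osm or Gfi1. The 2 arrays high for Pim2 differed in Xist and Kdm5d, replicate 2 having Xist alone and replicate 4 Kdm5d with little Xist.

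Those 2 arrays also stood apart in Gzmb, which encodes the cytotoxic protease granzyme B and belongs to the list of other STAT5 targets. Gzmb read 6.51, 13.28, 5.66 and 12.41 in TEL-JAK2 replicates 1 to 4, against 5.38, 4.63 and 5.28 in ICN1. It was high where Pim2 was high, and so was the macrophage list given above. Of the same target list, Il2ra, Myc and Tnfrsf4 also read highest in TEL-JAK2 replicates 2 and 4, and the remaining genes did not. Klf2 and S1pr1, which are outside that list, were highest in these arrays too. The pattern is therefore not particular to STAT5 targets. The part of macrophages in the level of Pim2 was not tested.

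Pim3, the third member of the kinase family, had 3 probe sets, of which none was called. The brightest, 1437100_x_at, read 8.94, 9.23, 9.08 and 9.07 in TEL-JAK2, against 8.94, 8.35 and 9.01 in ICN1, a difference of 0.32 ± 0.17 (adjusted p = 0.26 by limma). The next, 1451069_at, read 7.36, 7.41, 7.32 and 7.22 in TEL-JAK2, against 7.0, 6.40 and 7.48 in ICN1, a difference of 0.37 ± 0.23 (adjusted p = 0.325). In both the TEL-JAK2 arrays lay close together and ICN1 replicate 2 was the lowest of the 7 arrays. The dim 1438956_x_at read 3.69 to 4.41 in TEL-JAK2 and 4.12 to 4.47 in ICN1 (-0.07 ± 0.20, adjusted p = 0.861), a level that 72.9% of probe sets exceeded. The suffix _x_at marks probe sets whose probes can match other transcripts.

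Bcl6 was the member with the lowest reading in TEL-JAK2 relative to ICN1, without being called. Its brighter probe set, 1421818_at, read 6.81, 6.82, 6.26 and 5.76 in TEL-JAK2, against 6.78, 7.40 and 7.18 in ICN1. Replicates 3 and 4 of TEL-JAK2 lay below every ICN1 array, and replicates 1 and 2 lay just above ICN1 replicate 1. The difference of -0.70 ± 0.29 had an unadjusted p of 0.0414 and an adjusted p of 0.135 by limma. The other probe set, 1450381_a_at, read 5.90, 5.90, 5.42 and 5.57 in TEL-JAK2, against 5.74, 6.06 and 6.20 in ICN1 (-0.30 ± 0.17, adjusted p = 0.269). Both probe sets leaned the same way, and both had their lowest 2 readings in TEL-JAK2 replicates 3 and 4. The 10 measured B-lineage genes summed to 11.69 to 13.46 in TEL-JAK2 and 12.51 to 13.86 in ICN1, with 1 higher in TEL-JAK2 and 9 not called. Ighm was by far the brightest of these genes and carried most of the sum. Within TEL-JAK2, Cd79a, Cd79b, Ms4a1, Blnk, Cd22 and Ebf1 had their lowest 2 readings in replicates 3 and 4, as Bcl6 did. Ighm, Vpreb1, Igll1 and Pax5 did not. The part of B cells in the level of Bcl6 was not tested.

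**Figure D2:**
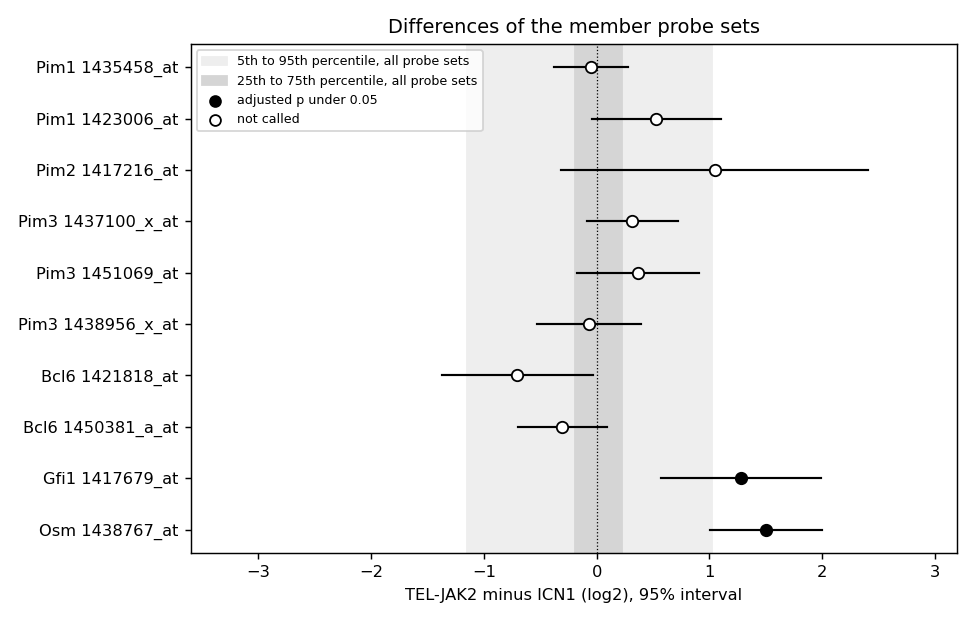
Differences of the 10 member probe sets (horizontal axis, TEL-JAK2 minus ICN1, log2) with 95% intervals. Filled points were called by limma, and the grey bands mark the 5th to 95th percentile (-1.15 to 1.02) and the 25th to 75th percentile (-0.19 to 0.22) over all probe sets. Osm and Gfi1 lie beyond the wider band.

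The called differences depend in part on how the arrays are scaled. RMA draws all arrays toward a common distribution. Levels relative to the CD3 transcripts were examined by centring each array on the mean of Cd3d, Cd3e, Cd3g and Cd247. CD3 transcript per T cell was not measured, so these are not levels per T cell. Every probe set of an array is moved by the same value, so all differences fall by the same amount. A rise smaller than that amount turns negative whatever the gene. The median over all probe sets was then -0.59, against 0.035 with the deposited scaling, and 1558 probe sets (3.46%) were higher and 30005 (66.6%) lower, against 4172 higher and 4660 lower with the deposited scaling. Osm stayed higher (0.88, adjusted p = 0.0209 by limma), and the difference of Gfi1 was 0.66 (adjusted p = 0.0637). Relative to CD3 the brighter Pim1 probe set was lower (-0.67, adjusted p = 0.0136), as were the dim Pim3 probe set (-0.69, adjusted p = 0.018) and both Bcl6 probe sets (-1.33 and -0.92, adjusted p = 0.0053 and 0.0107). With 66.6% of all probe sets lower in the same setting, the 4 lower member probe sets are no more than the table as a whole.

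**Figure D3:**
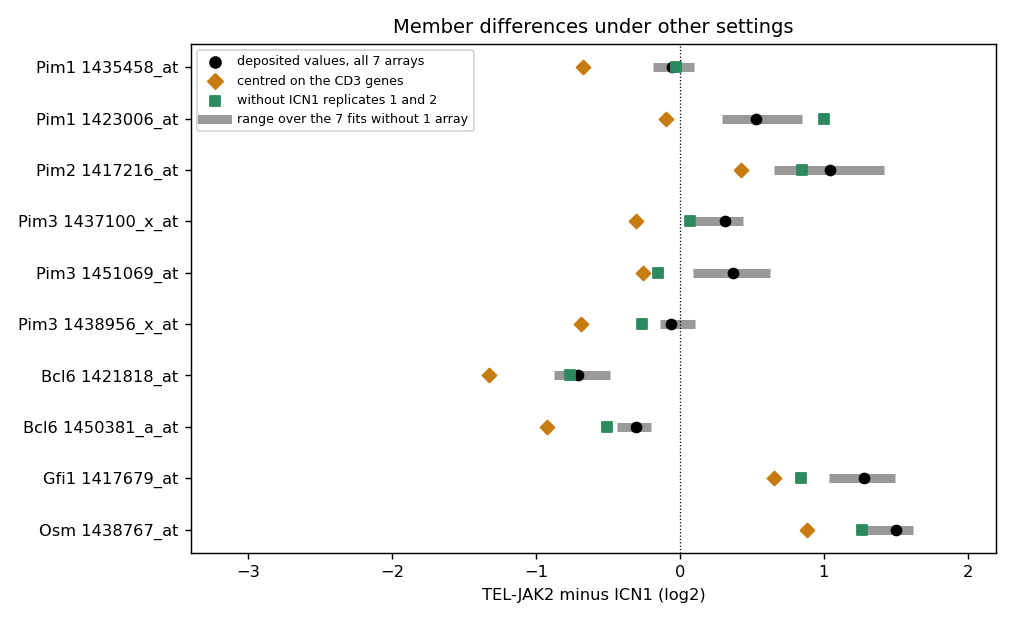
Differences of the member probe sets (horizontal axis, TEL-JAK2 minus ICN1, log2) with the deposited values (black circles), after centring on the CD3 genes (orange diamonds) and without ICN1 replicates 1 and 2 (green squares). Grey bars give the range over the 7 fits without 1 array. Osm, Gfi1 and Pim2 stay above 0 in each of these settings.

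Of 20 further STAT5 targets, all measured, 10 were higher in TEL-JAK2, 2 were lower and 8 were not called, when each gene was represented by its brightest probe set. Among all 18193 genes 11.3% were higher and 11.7% lower, 23.0% in either direction. The median difference was 1.42 over the list and 0.044 over all genes. Cish rose by 3.21 ± 0.14 (adjusted p = 1.58e-05), Socs3 by 4.22 ± 0.26 (8.01e-05) and the survival gene Bcl2 by 5.27 ± 0.26 (2.51e-05). Ccnd2, which encodes the G1 cyclin D2, rose by 3.93 ± 0.70 (0.0079), and the cytokine gene Lta by 2.71 ± 0.40 (0.00372). The 2 lower genes were the growth regulator Myc (-1.16 ± 0.24, adjusted p = 0.0154) and Id1, whose product blocks helix-loop-helix factors (-2.26 ± 0.50, adjusted p = 0.018). The call of Id1 ended when ICN1 replicate 2 (adjusted p = 0.0611) or TEL-JAK2 replicate 3 (0.0503) was left out, and that of Lta when ICN1 replicates 1 and 2 were both left out (0.0743). With CD3 centring 9 of the 20 were higher and 5 lower, where 3.46% of all probe sets were higher and 66.6% lower. Of these 20 targets 10 had a larger difference than Osm and 10 a larger one than Gfi1, as the plot of the members among these targets shows.

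**Figure D4:**
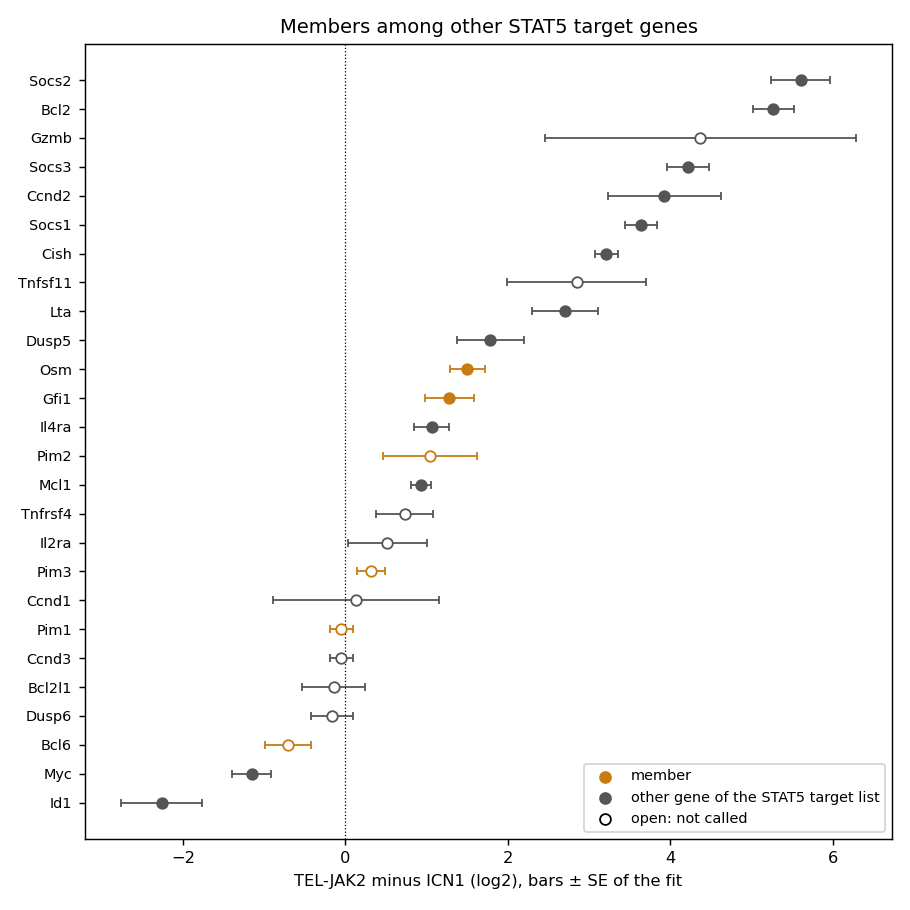
Differences (horizontal axis, TEL-JAK2 minus ICN1, log2, bars ± SE of the fit) of the brightest probe set of the 6 members (orange) and of 20 other STAT5 targets (grey). Filled points were called by limma. Osm (1.5) and Gfi1 (1.28) lie in the middle of the plot, Pim1 (-0.05) and Pim3 (0.32) near 0, and Bcl6 (-0.70) near its lower end.

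In mice oncostatin M signals through OSMR paired with gp130, the product of Il6st. Osmr read 4.09, 4.11, 3.94 and 5.64 in TEL-JAK2, against 5.08, 5.05 and 4.00 in ICN1, and was not called (-0.26 ± 0.46, adjusted p = 0.752). Its mean was dim, exceeded by 66.0% of probe sets, and its further probe sets were not called either (-0.17 and 0.058). Il6st read 8.53, 8.43, 8.55 and 8.33 in TEL-JAK2, against 9.92, 9.05 and 9.11 in ICN1, and was lower by limma (-0.90 ± 0.21, adjusted p = 0.024). Of its 3 further probe sets 1 was called lower (-1.0) and 2 were not called. Lifr, which encodes the receptor of leukemia inhibitory factor, was higher (2.12 ± 0.52, adjusted p = 0.0265), with 8.24, 7.27, 8.45 and 8.76 in TEL-JAK2 and 6.19, 7.01 and 4.97 in ICN1. A further Lifr probe set was called higher (1.21, adjusted p = 0.0152) and another was not called (0.47, adjusted p = 0.109). The calls of both genes were lost when single arrays were left out, that of Il6st without any 1 TEL-JAK2 array (adjusted p from 0.051 to 0.0595) and that of Lifr without ICN1 replicates 1 or 3 (0.064 and 0.0529) or TEL-JAK2 replicates 1, 3 or 4 (0.0693, 0.0686 and 0.0565). The related cytokine genes Lif (1.07 ± 0.33, adjusted p = 0.0633), Il6 (0.24 ± 0.17) and Il11 (0.10 ± 0.13) were not called. Il6 and Il11 were dim, at means that 91.7% and 59.5% of probe sets exceeded. The differences of Il6 and Il11 turned negative with CD3 centring, as all rises that small do. Lif was called without TEL-JAK2 replicate 3 (adjusted p = 0.0297). A further Lif probe set, dim in both groups, was not called (-0.015, adjusted p = 0.951 by limma). In all, 1 of the 6 receptor and family genes was higher and 1 lower, where 11.3% of all genes were higher and 11.7% lower.

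Gfi1b, the paralog of Gfi1 used in red cell and platelet precursors, went the opposite way. It read 5.22, 4.95, 5.55 and 5.44 in TEL-JAK2, against 9.29, 8.68 and 8.61 in ICN1 (-3.57 ± 0.21, adjusted p = 6.56e-05 by limma). The erythroid and megakaryocyte lists given above stood higher in ICN1 as well, and their part in Gfi1b was not tested. In a list of 6 genes, made of Gfi1b and partner genes of GFI1, 1 was lower (Gfi1b), 1 higher and 4 not called. Among all genes 23.0% were called. The higher one, Zbtb17, which encodes the GFI1-binding factor MIZ1, differed by 0.45 ± 0.10 (adjusted p = 0.0165), a difference that turned to -0.17 with CD3 centring and was not called without ICN1 replicate 1 (adjusted p = 0.0547). Kdm1a, which encodes the demethylase LSD1 recruited by GFI1, was not called (-0.21 ± 0.20, adjusted p = 0.536). Of 9 measured genes that GFI1 is known to repress 1 was lower (Id1) and 8 were not called by limma, so neither list is set apart from all genes by its count.

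**Figure D5:**
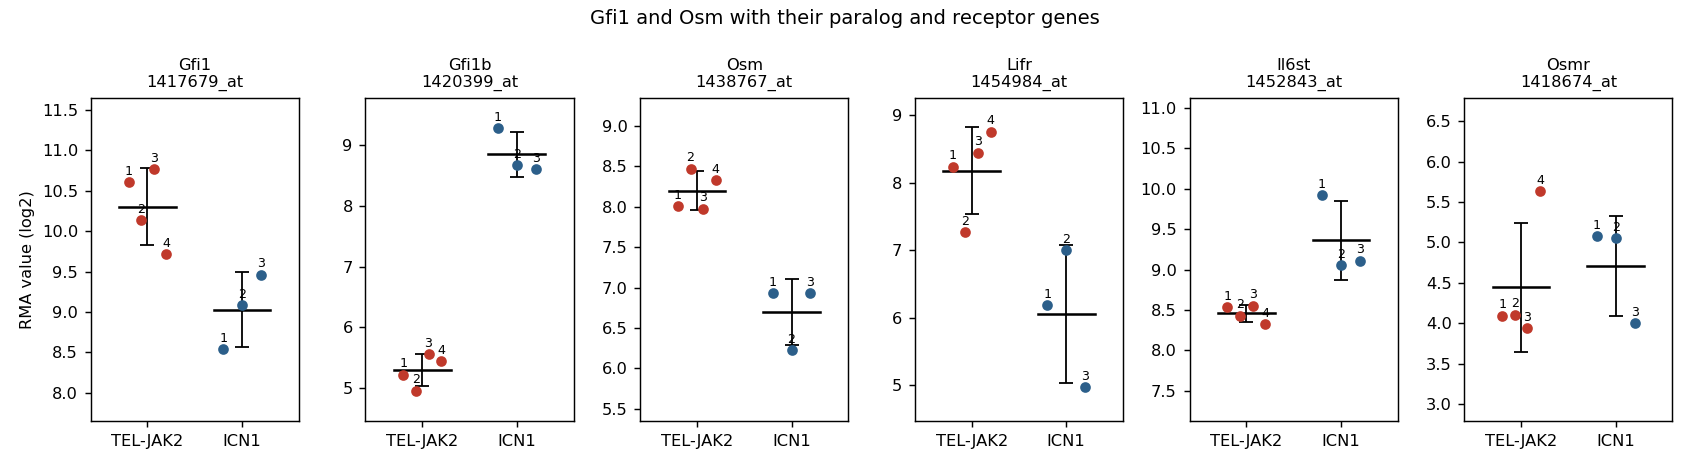
RMA values (log2, vertical axes) in the 4 TEL-JAK2 (red, left) and 3 ICN1 arrays (blue, right). Shown are Gfi1 with its paralog Gfi1b, and Osm with its receptor genes Osmr and Il6st and the related receptor gene Lifr. Points carry the replicate number, lines are means and bars ± 1 SD. Gfi1, Osm and Lifr lie higher in TEL-JAK2, Gfi1b and Il6st lower, and Osmr overlaps.

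The counts among genes downstream of BCL6 and the PIM kinases lay near the 23.0% called among all genes (11.3% higher and 11.7% lower). Of 10 measured genes known to be repressed by BCL6, 1 was higher (Ccnd2) and 1 lower, the adhesion receptor gene Cd44 (-2.86 ± 0.66, adjusted p = 0.0213 by limma). Cd44 lost its call without ICN1 replicates 2 or 3 (adjusted p = 0.0514 and 0.0654) or TEL-JAK2 replicate 1 (0.06). Prdm1, whose product BLIMP1 and BCL6 repress each other, read 4.85, 7.54, 4.65 and 5.65 in TEL-JAK2, against 4.93, 4.51 and 4.45 in ICN1, and was not called (1.04 ± 0.65, adjusted p = 0.325). Its highest array, TEL-JAK2 replicate 2, was also the highest for Pim2 and Osm. Of the 3 measured BCL6 corepressor genes 1 was higher, Tbl1xr1 (0.71 ± 0.10, adjusted p = 0.00237, and 0.09 with CD3 centring), while Bcor and Hdac3 were not called. Of 12 genes for known PIM substrates 1 was higher, 2 were lower and 9 were not called, again close to the 23.0% of all genes. The higher one was the transcription factor Foxo1 (0.82 ± 0.12, adjusted p = 0.00289, and 0.20 with CD3 centring). The lower ones were the cell cycle phosphatases Cdc25c (-2.59 ± 0.20, adjusted p = 0.000273) and Cdc25a (-0.77 ± 0.16, adjusted p = 0.0132). PIM kinases act on these proteins, so transcript levels do not report that activity.

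The genes with patterns most like those of the members were sought among 9699 genes with a mean of at least 6, by the root mean square difference between mean-centred log2 values over the 7 arrays. The 7 arrays form 2 groups, so a gene that differs between the leukemias by a similar amount comes close by that alone. Closest to Gfi1 were Arhgef11, Cep97 and Stim2 (0.14 to 0.16), and closest to Osm were Plec, Dennd1c and Paqr7 (0.15 to 0.19). Prxl2c, Ftx and Abca3 came closest to Bcl6 (0.20 to 0.21). Pim2 had looser neighbours, Batf, Pfkp and Cd274 (0.40 to 0.41). Pim1 and Pim3 varied too little over the 7 arrays (SD 0.17 and 0.28) for this measure.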

How the data were processed

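RNA from leukemic cell suspensions was hybridised to Affymetrix mouse expression arrays, 1 array per sample. The authors deposited log2 values, 1 per probe set and array, made with RMA per the submitters' processing notes; the RMA version is not stated there. RMA corrects background, normalizes across arrays and compresses folds near background. Detection calls and batches did not enter the tests, and the number of arrays limits the precision. Symbols came from the platform annotation (34945 probe sets with 1 symbol, 932 with several, 9160 with none).

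All 45037 probe sets entered 1 fit of TEL-JAK2 minus ICN1 (R 4.3.3, limma 3.58.1, functions lmFit and eBayes, two-sided, no trend), with Benjamini-Hochberg adjustment over all of them. Intervals are 95% intervals of that fit. Lists were counted over genes by the probe set with the highest mean. Summed levels are log2 of the summed unlogged values. Replicates were numbered in accession order. The members, lists, alternatives and tests were chosen with earlier results of these data known. Genes outside the members were named by a rule, and not every gene that it picks is named. The rule took the called list members with the smallest adjusted p or those with the largest, set partners (Osmr, Il6st, Prdm1, Kdm1a) and a paralog (Gfi1b). It also took members of counts of 5 or fewer and the 3 nearest patterns. Gzmb, Lta, Mcl1, Dusp5, Il4ra, Il2ra, Tnfrsf4, Klf2, S1pr1, Foxn1, Aire, Pecam1, Xist, Kdm5d and the B-lineage genes were named after their values were seen. Scripts were tested on simulated arrays. Figures were drawn with matplotlib 3.10.9.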

Additional observations from a re-analysis of the deposited data

Results flagged for a closer look

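Of 35 probe sets named with values, 3 had a TEL-JAK2 array whose gap to the nearest other array took up most of the range of the 4 arrays (above Dixon's 95% critical value). Chance flags about 1 in 20 such groups, and 5.62% of all probe sets met the same rule. The dim Pim3 probe set 1438956_x_at read 3.69 in TEL-JAK2 replicate 4, against 4.36 to 4.41 in the other 3 arrays. Osmr read 5.64 in TEL-JAK2 replicate 4, against 3.94 to 4.11 in the others. Tbl1xr1 read 10.30 in TEL-JAK2 replicate 2, against 10.51 to 10.52. None of the probe sets of Pim1, Pim2, Bcl6, Gfi1 and Osm met the rule.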

How the results depend on the processing

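No paired analysis was possible because the labels give no replicate numbers shared between the groups. Over all probe sets 8832 were called. The count was 4380 with 1 probe set per gene, 4329 after averaging the probe sets of each gene, 31563 with CD3 centring, 2196 against a 1.5-fold difference, 2266 with unequal variances, 4152 at an adjusted p under 0.01, 5813 without ICN1 replicates 1 and 2, and 6175 to 8563 in the 7 fits without 1 array. Testing genes in place of probe sets lowers the number tested. The threshold of 0.01 was applied to the same fit, and the 1.5-fold test asks for a larger difference. CD3 centring lowers all differences by the same amount, so small rises change sign by construction. The cause of the other changes was not tested. Of the member probe sets 2 were called. The count was 5 with CD3 centring (1 higher, 4 lower), 1 against a 1.5-fold difference, 1 at an adjusted p under 0.01, and 1 to 2 without 1 array. With unequal variances it was 0. In that test 2 member probe sets had an unadjusted p under 0.05, as did 11211 of all 45037 probe sets. Of the 20 STAT5 targets 12 were called, 7 against a 1.5-fold difference, 6 with unequal variances and 10 to 12 without 1 array. Differences that changed sign were those of Pim1 1435458_at (0.24 as the mean of both probe sets, and -0.19 to 0.10 without 1 array), Pim1 1423006_at (-0.10 with CD3 centring), Pim3 1437100_x_at (-0.31 with CD3 centring), Pim3 1451069_at (-0.25 with CD3 centring, -0.15 without ICN1 replicates 1 and 2), and the dim Pim3 1438956_x_at (0.027 with array weights, -0.14 to 0.11 without 1 array). The same held with CD3 centring for Il6 (-0.39), Il11 (-0.52), Zbtb17 (-0.17) and Foxn1 (-0.29), for Osmr without ICN1 replicates 1 and 2 (0.45) and for Kdm1a without ICN1 replicate 3 (-0.35 to 0.031 over the 7 fits without 1 array). Of 198 alternative values of the member probe sets 173 kept their direction and their side of the threshold. For probe sets not called at first, this was fixed in advance at the 0.01 threshold and in the 1.5-fold test. Settings that alter only the test keep each difference, so no sign can change there. The differences of Osm, Gfi1, Pim2 and both Bcl6 probe sets kept their sign under every alternative run, and Gfi1 lost its call in 9 of 21. Low RMA values, such as those of 1438956_x_at, limit what a small difference can show.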

Other observations

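ICN1 replicate 2 held the extreme reading of the 7 arrays in 7 of the 10 member probe sets. It was highest for both Pim1 probe sets (10.94 and 8.23) and Bcl6 1421818_at (7.40), and lowest for Pim2 (6.58), Osm (6.22) and 2 Pim3 probe sets (8.35 and 6.40). No other array was extreme in more than 4. TEL-JAK2 replicate 2 was highest in 3 probe sets, those of Pim2 (9.46), Osm (8.47) and Pim3 1437100_x_at (9.23), and TEL-JAK2 replicate 1 was extreme in 0. The probe sets of 1 gene share their transcripts and are not independent readings of an array.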
